A study of Mus musculus with 29 samples.

Results

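The comparison described here set neural precursor cells (NPC) labelled BERKO, an abbreviation for estrogen receptor beta knockout, against NPC labelled wild type (WT), both without the receptor agonist LY3201. It used 4 of the 29 arrays of the series, 2 of each genotype, chosen by the source name given for each sample. The BERKO arrays hold RNA of NPC with the genotype ERb knockout and no agonist, and the WT arrays hold RNA of wild-type NPC with no agonist. Both kinds of NPC had been derived from mouse embryonic stem cells (mESC) and expanded without feeder cells in a defined medium with basic fibroblast growth factor and laminin. The treatment label of these arrays is "none", while the treatment protocol gives dimethyl sulfoxide as the vehicle for 4 days, so vehicle was not told apart from no addition. For comparison, 4 NPC arrays of both genotypes treated for 4 days with 0.5 nM LY3201, a selective agonist of the receptor, were read, with the 4 mESC arrays and the arrays of the midbrain precursor (mDPC) and mature midbrain neuron (MN) stages without LY3201, 2 per genotype except 3 for BERKO MN. The labels do not say how the knockout was made, how many clones stood behind each genotype, or whether the lines share a genetic background, so genotype and line cannot be told apart. In the array titles the running numbers of the BERKO NPC arrays lie apart from those of the WT NPC arrays, and the labels do not say whether these numbers mark different hybridisations.

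Estrogen receptor beta, encoded by Esr2, is a nuclear receptor that binds estradiol and then regulates transcription from DNA. Neural precursors in culture divide while they keep a radial glia-like identity, with Sox and Hes transcription factors, and they can later form neurons, astrocytes or oligodendrocytes. The series asks about the role of the receptor in neural differentiation of stem cells, and the NPC arrays without agonist give the genotype difference at the first neural stage.

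Signals are log2 values of transcript clusters, 1 cluster per gene, and a difference is BERKO minus WT on the log2 scale. A gene is called where limma's Benjamini-Hochberg adjusted p over 22063 tested genes was under 0.05. Across these genes the 2 BERKO arrays correlated at r = 0.9978 and the 2 WT arrays at r = 0.9982, against 0.9917 to 0.9935 between genotypes. The SD of the difference between arrays was 0.233 within BERKO and 0.2 within WT. Negative control probes had 95th percentiles of 7.29 to 7.46 on these arrays. A signal under that level is called here within the background range, and a fold against such a signal is given as "at least", with the 95th percentile of the same array in place of the lower signal. The number of arrays, 2 per genotype, limits the precision of each value.

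The label could not be checked through the targeted gene. Esr2 read 4.34 and 4.27 in BERKO NPC, against 3.37 and 3.26 in WT NPC, a difference of 0.99 (limma SE 0.125, adjusted p = 1.39e-05). The cluster was thus higher in the arrays labelled knockout, with all 4 signals in the background range, and the probes are not known to lie in the deleted part, so WT and BERKO are used below as the names of the labels. Esr1, the gene of estrogen receptor alpha, read 3.31 and 3.26 in BERKO NPC and 3.35 and 3.44 in WT NPC (difference -0.11, adjusted p = 0.476), also in the background range.

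The cells carried the markers of the stage in both genotypes. Of 20 neural stem and radial glia genes, 13 lay above the background range on all 4 arrays, and the list averaged 11.18 and 11.20 in BERKO NPC, against 11.14 and 11.16 in WT NPC. Among all tested genes 10.6% were called higher and 5.08% lower in BERKO NPC. Of the 20 neural stem and radial glia genes 6 were called higher in BERKO NPC (Sox3, Sox9, Hes5, Bcan, Nes and Ptprz1). Called lower were 4 (Prom1, Sox11, Sox1 and Msi2). The rises numbered 3 after quantile normalisation or cyclic loess, and the falls then numbered 6 and 5. Without WT array 2 the rises numbered 4 and the falls 2. Bright genes were called higher more often: of all 2457 tested genes with a mean above 11, 584 were higher and 112 lower. None of 16 pluripotency genes lay above the background range on all 4 arrays. They averaged 3.74 and 3.76 in BERKO NPC and 3.86 and 3.79 in WT NPC, where mESC arrays averaged 12.30 to 12.39. Lists of endothelium, blood and microglia, muscle, epithelium and ependyma had no member above the range on all 4 arrays. Some markers of other cells differed as well. Of 8 tested oligodendrocyte precursor markers 6 rose in BERKO, 3 of them to a BERKO signal above the background range. The 8 averaged 9.76 and 9.65 in BERKO NPC, against 8.52 and 8.41 in WT NPC. Of 20 tested mesenchyme and smooth muscle markers 9 fell, 3 of them from a WT signal above the background range, and 1 rose, and the 24 with a cluster averaged 4.59 and 4.65 in BERKO NPC, against 5.45 and 5.42 in WT NPC. Of 10 neural crest and Schwann cell markers 2 were called higher, both in the background range: Cdh19 differed by 1.71 and Pax3 by 1.33. Astrocyte markers are given below. RNA from a whole culture cannot tell fewer cells of a type from less RNA per cell, and the part of such cells in the results below was not tested.

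Of the 22063 tested genes 2334 (10.6%) were higher and 1120 (5.08%) were lower in BERKO NPC, and the median difference over all of them was 0.03. At least 2-fold, 338 genes (1.53%) were higher and 171 (0.775%) lower. The excess of rises over falls among all calls depended on the scaling of the arrays: 67.6% of the called genes were higher as deposited, 53.9% after centring each array on its median, 49.3% after cyclic loess and 43.8% after quantile normalisation. The median difference ran with the signal level, from -0.05 for genes at a mean of 4 or below to 0.21 for genes above 11.

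**Figure D1:**
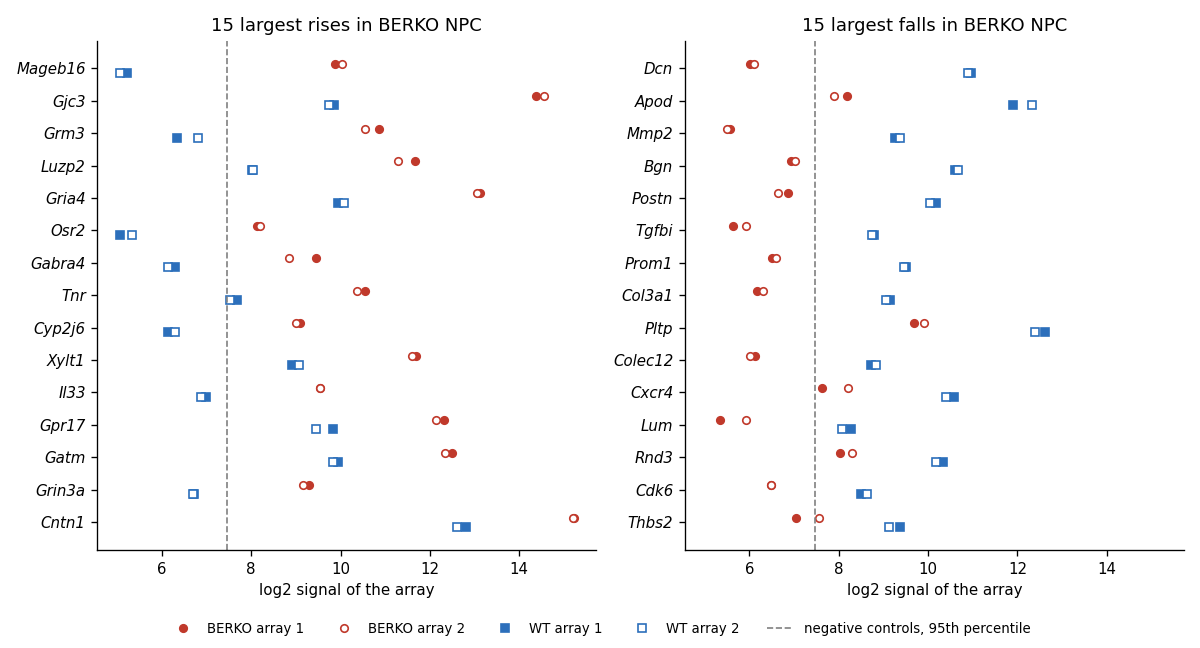
Log2 signal (horizontal axis) of the 15 genes with the largest rises (left) and the 15 with the largest falls (right) in BERKO NPC, each array as 1 point, circles for BERKO and squares for WT. The dashed line marks the highest 95th percentile of the negative controls, 7.46. Only genes whose BERKO and WT arrays do not overlap could be drawn, so the separation of the points was a condition of choice. Predicted genes, small RNAs and some receptor families were left out.

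The 15 largest rises were taken without predicted genes, small RNAs and some receptor families. They included several genes of the oligodendrocyte lineage and of glutamate and GABA signalling. Gjc3, a connexin gene of myelinating glia, read 14.38 and 14.55 in BERKO NPC, against 9.86 and 9.75 in WT NPC, a 25.2-fold rise (difference 4.66, SE 0.21, adjusted p = 1.11e-11). Grm3, a metabotropic glutamate receptor, read 10.86 and 10.56 in BERKO NPC, against 6.34 and 6.82 in WT NPC, at least 9.52-fold higher (adjusted p = 1.12e-11). Gria4, a subunit of AMPA-type glutamate receptors, read 13.11 and 13.05 in BERKO NPC and 9.95 and 10.08 in WT NPC, an 8.37-fold rise (adjusted p = 9.8e-12). For all 3 the gap between genotypes was several times the gap between arrays of a genotype. The MAGE-family gene Mageb16, which lies on the X chromosome, had the largest rise in log2 signal of the 15, with WT in the background range. It read 9.87 and 10.03 in BERKO NPC, against 5.22 and 5.06 in WT NPC, at least 5.63-fold higher (difference 4.81, limma adjusted p = 1.03e-12). Luzp2 rose 11-fold, with 11.68 and 11.29 in BERKO NPC against 8.02 and 8.03 in WT NPC. Cntn1, which encodes the cell adhesion protein contactin, was at 15.22 and 15.21 in BERKO NPC and at 12.82 and 12.62 in WT NPC, 5.64-fold higher. The rest of the 15 were the GABA-A receptor subunit Gabra4 (at least 3.24-fold), the matrix glycoprotein gene Tnr (7.22-fold), the cytochrome Cyp2j6 (at least 3.01-fold), Xylt1, which starts sugar chains on proteoglycans (6.27-fold), the cytokine gene Il33 (at least 4.25-fold), Gpr17, a receptor of maturing oligodendrocyte precursors (6.03-fold), Gatm of creatine synthesis (5.77-fold), the NMDA receptor subunit Grin3a (at least 3.41-fold) and the transcription factor Osr2 (at least 1.64-fold).

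The genes that fell most were led by components of the extracellular matrix. Dcn, which encodes the small proteoglycan decorin, read 6.02 and 6.09 in BERKO NPC, against 10.96 and 10.90 in WT NPC, at least 12.0-fold lower (difference -4.87, SE 0.22, adjusted p = 1.58e-11). Bgn, for the related proteoglycan biglycan, read 6.94 and 7.02 in BERKO NPC and 10.61 and 10.68 in WT NPC, at least 9.88-fold lower. Mmp2, a matrix metalloprotease, read 5.58 and 5.51 in BERKO NPC and 9.27 and 9.38 in WT NPC, at least 3.96-fold lower (adjusted p = 1.79e-14). In BERKO these 3 genes lay in the background range and in WT well above it. Postn, the gene of periostin, was at 6.86 and 6.64 in BERKO NPC, against 10.18 and 10.03 in WT NPC, at least 6.8-fold lower. Apod, a lipid-binding lipocalin, was above background in both, with 8.20 and 7.91 in BERKO NPC and 11.90 and 12.32 in WT NPC, a 16.7-fold fall (difference -4.06). Prom1, the stem cell surface protein prominin, was at 6.50 and 6.60 in BERKO NPC, against 9.51 and 9.47 in WT NPC, at least 4.44-fold lower. Among the other 9 were Cxcr4, the receptor of the chemokine Cxcl12 (5.9-fold lower), the phospholipid transfer protein gene Pltp (6.56-fold), the cell cycle kinase Cdk6 (at least 2.33-fold), and the matrix genes Col3a1 (at least 3.38-fold), Tgfbi (at least 2.68-fold), Lum (at least 1.79-fold) and Thbs2 (at least 3.42-fold, with 1 BERKO array in the background range). Colec12, a collectin-type scavenger receptor, was at least 2.72-fold lower.

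Oligodendrocytes arise from Olig2-positive precursors, and glutamate receptors are present on these precursors as on neurons. Of 23 tested genes of the oligodendrocyte lineage 12 rose in BERKO NPC and 0 fell, where 10.6% of all tested genes rose and 5.08% fell. The median difference of the 23 was 0.44, and 7 of the 12 lay above the background range in BERKO. Olig2, the transcription factor that specifies the lineage, read 16.41 and 16.03 in BERKO NPC, against 14.19 and 13.99 in WT NPC (difference 2.13, adjusted p = 1.05e-07). Lhfpl3 read 14.18 and 13.91 in BERKO NPC and 11.63 and 11.82 in WT NPC, a difference of 2.32. The myelin glycoprotein gene Omg and the proteoglycan gene Cspg5 were in the background range in WT, and were at least 1.98-fold and at least 1.5-fold higher. Cspg4, the gene of the precursor proteoglycan NG2, read 4.78 and 4.60 in BERKO NPC and 3.91 and 3.68 in WT NPC, so it passed the test (difference 0.90) inside the background range. Of 17 AMPA, kainate and NMDA receptor genes 7 rose and 1 fell. Besides Gria4 and Grin3a, the kainate receptor gene Grik3 was at least 1.56-fold higher than a WT signal in the background range, the auxiliary subunit Cacng4 differed by 1.31, and the AMPA receptor genes Gria2 and Gria3 by 1.11 and 0.97. The NMDA receptor gene Grin2b was the 1 that fell, and it read 3.24 and 3.30 in BERKO NPC and 4.65 and 4.79 in WT NPC, in the background range. Of 14 metabotropic glutamate and GABA receptor genes 5 rose and 0 fell, Grm5 by 1.08 (10.06 and 10.05 in BERKO NPC, against 8.87 and 9.08 in WT NPC) and Gabrb1, in the background range, by 1.21. Grm5 was not called without BERKO array 2 or without WT array 1. Astrocyte markers were divided, with 4 of 12 higher and 3 lower. The calcium-binding protein gene S100b was at least 2.02-fold higher than a WT signal in the background range. The folate enzyme gene Aldh1l1, in the background range, differed by 1.01, and Fgfr3 and Acsbg1 were also called higher. The matricellular gene Sparcl1 fell by 1.18, the glutamate transporter gene Slc1a2 fell by 0.90, and Gfap was also called lower.

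The matrix genes fell as several families. Of 27 tested collagens 13 fell and 1 rose, where 5.08% of all tested genes fell and 10.6% rose. The median difference of the collagens was -0.28, but the WT signal was above the background range for only 2 of the 13. The basement membrane collagens Col4a1 and Col4a2, made as a pair, differed by -1.76 and -2.02: Col4a2 read 4.93 and 4.97 in BERKO NPC, against 6.92 and 7.03 in WT NPC. Col11a1 was the 1 that rose, at 6.17 and 6.35 in BERKO NPC and 5.68 and 5.71 in WT NPC (difference 0.57). Among laminins, basement membrane proteins and integrins 15 of 35 fell and 2 rose, with a median of -0.37, and 12 of the 15 were above background in WT. The laminin chain gene Lama1 read 6.17 and 6.24 in BERKO NPC, against 8.06 and 8.08 in WT NPC, and the chain gene Lamb1 also reached the background range in BERKO. They were at least 1.66-fold and at least 2.32-fold lower. The integrin gene Itga6, whose product binds laminin, read 11.08 and 11.26 in BERKO NPC and 12.02 and 12.18 in WT NPC (difference -0.93), and the linker Nid1 differed by -0.96. Sparc, an abundant collagen-binding protein, read 15.13 and 15.34 in BERKO NPC, against 16.21 and 15.97 in WT NPC, a difference of -0.85. Small leucine-rich proteoglycans had 5 of 12 lower and 0 higher. Among matrix proteases and inhibitors 8 of 22 fell and 3 rose: Mmp14, which activates Mmp2, differed by -1.42 and Adamts12 by -1.72, while Mmp16 rose by 1.34 (9.07 and 9.24 in BERKO NPC, against 7.79 and 7.83 in WT NPC). The mesenchyme markers that fell together with them were Postn, Col3a1, Lum, Pdgfrb, Col6a3, Col1a1, Tbx18, Acta2 and Myh11. Pdgfrb, a growth factor receptor of pericytes and fibroblasts, read 5.01 and 5.07 in BERKO NPC and 6.86 and 6.998 in WT NPC.

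**Figure D2:**
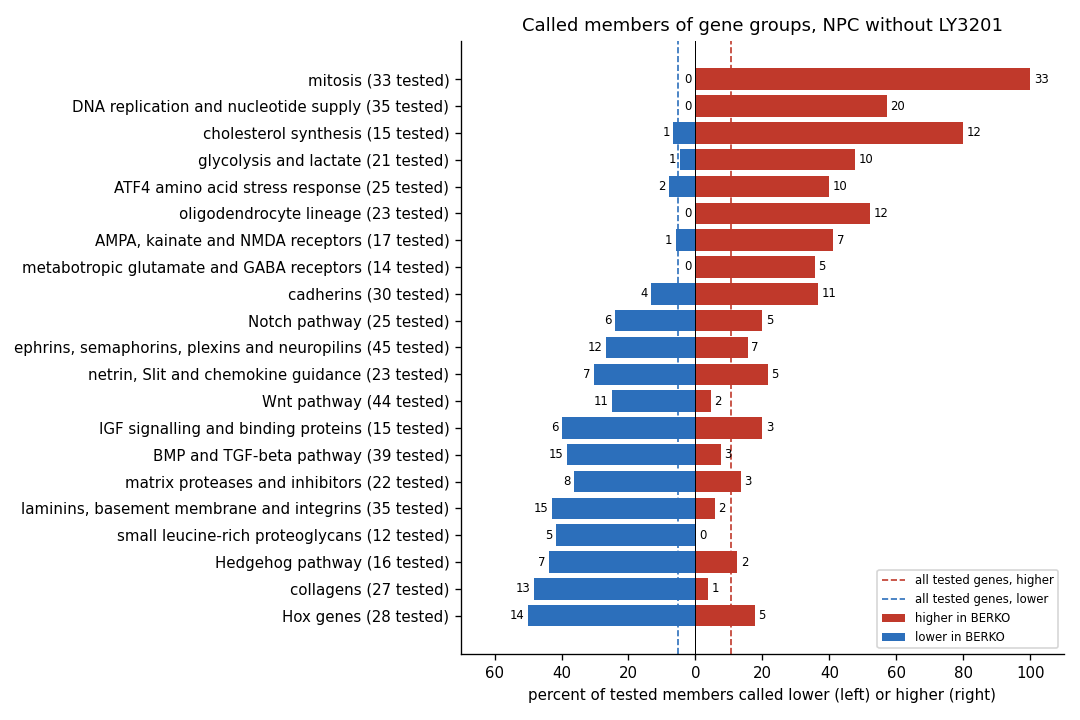
Percent of the tested members of 21 gene groups called higher (bars to the right) or lower (bars to the left) in BERKO NPC, with the number of called members at each bar. Dashed lines give the same over all tested genes, 10.6% higher and 5.08% lower; mitosis and cholesterol synthesis reach furthest to the right. To the left Hox genes (14 of 28) and collagens (13 of 27) have nearly the same share.

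Mitosis genes formed the group with the highest share of calls among those drawn. All 33 tested members of a list of 34 rose in BERKO NPC, where 10.6% of all tested genes did, and their median difference was 0.89. Ube2c, the ubiquitin-conjugating enzyme of the anaphase-promoting complex, read 13.06 and 13.18 in BERKO NPC, against 11.67 and 11.89 in WT NPC (difference 1.34, SE 0.165, adjusted p = 1.03e-05). Nusap1, a spindle microtubule protein, differed by 1.32 and Hmmr, a spindle protein that also binds hyaluronan, by 1.11. The proliferation marker Mki67 read 15.91 and 16.12 in BERKO NPC and 14.83 and 15.19 in WT NPC (difference 1.01, adjusted p = 0.00143). Cyclin A2 (Ccna2) differed by 1.01, the spindle motor gene Kif11 by 1.01, the kinetochore genes Nuf2 and Ndc80 by 0.98 each, the kinases Aurkb (from a WT signal in the background range), Aurka and Plk1 by 1.03, 0.97 and 0.96, and the anaphase activator Cdc20 by 0.96. In each of these genes both BERKO arrays were above both WT arrays, as in 34.2% of all tested genes. Of the 3454 genes called in either direction, 3452 had arrays that did not overlap by genotype, so this adds little to a call. Leaving out any 1 of the 4 arrays left 32 or 33 of the 33 called, and quantile normalisation left 32.

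Genes of this group are known to share promoter elements that time their transcription to the later part of the cell cycle: the cell cycle homology region, with the core TTTGAA, and CCAAT boxes bound by the factor NF-Y. RefSeq promoter windows of 250 bases before to 50 after each start (GRCm38.p6) were found for 27 of the 33 genes, 29 windows in all. On either strand TTTGAA was in 23 of the 29 windows (79.3%), against 17.9% of all 32851 windows, and CCAAT was in 22 (75.9%), against 37.4%. Neither motif contains the other, and neighbouring matches can share letters, as CCAATTGG does. Windows of Ube2c (chr2:164769679-164769978, plus strand) and Hmmr (chr11:40733388-40733687, minus strand) are shown as examples that hold both, with CCAAT or its complement ATTGG and TTTGAA or its complement TTCAAA in capitals. A match describes these letters and is not a measurement of binding.
Ube2c: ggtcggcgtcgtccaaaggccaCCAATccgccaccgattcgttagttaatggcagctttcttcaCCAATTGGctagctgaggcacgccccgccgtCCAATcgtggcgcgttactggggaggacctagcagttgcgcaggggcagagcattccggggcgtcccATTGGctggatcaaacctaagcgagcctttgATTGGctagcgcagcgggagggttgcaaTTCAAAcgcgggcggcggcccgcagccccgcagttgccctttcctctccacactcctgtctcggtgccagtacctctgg
Hmmr: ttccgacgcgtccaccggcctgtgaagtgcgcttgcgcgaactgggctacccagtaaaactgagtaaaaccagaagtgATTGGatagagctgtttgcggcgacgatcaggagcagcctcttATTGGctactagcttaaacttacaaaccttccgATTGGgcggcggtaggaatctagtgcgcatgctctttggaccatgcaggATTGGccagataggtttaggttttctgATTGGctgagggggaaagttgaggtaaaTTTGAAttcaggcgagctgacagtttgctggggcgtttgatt
In both windows a single TTTGAA match lies near the start site, downstream of several CCAAT matches, 6 in Ube2c and 5 in Hmmr.

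Replication genes rose less uniformly. Of 35 tested genes of DNA replication and nucleotide supply 20 rose and 0 fell, where 10.6% of all tested genes rose and 5.08% fell. The median difference of the 35 was 0.39. Rrm1, a subunit of ribonucleotide reductase, read 14.04 and 14.06 in BERKO NPC, against 13.18 and 13.33 in WT NPC (difference 0.80, adjusted p = 4.77e-06), and its partner Rrm2 differed by 0.87. The helicase subunit genes Mcm5 and Mcm4 differed by 0.72 and 0.60, the primase gene Prim1 by 0.67 and the sliding clamp gene Pcna by 0.55 (12.44 and 12.50 in BERKO NPC, against 11.84 and 11.99 in WT NPC). The count of 20 was 10 without WT array 1, 11 without BERKO array 2 and 8 when the 4 arrays were fitted alone. Among D and E cyclins, E2F factors and inhibitors 8 of 23 rose and 3 fell, and the number of rises was 3 without WT array 1 or without BERKO array 2, 5 without BERKO array 1, and 1 when the 4 arrays were fitted alone. Myc, a transcription factor that drives growth, read 9.82 and 9.90 in BERKO NPC and 8.46 and 8.47 in WT NPC (difference 1.39, adjusted p = 4.26e-10). The genes that fell were Cdk6, E2f1 and Ccnd2, the D cyclin that partners Cdk6, which read 12.95 and 13.19 in BERKO NPC, against 13.53 and 13.85 in WT NPC. Ccnd2 was not called without WT array 2.

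Most genes of cholesterol synthesis rose. This pathway turns acetyl units into mevalonate, then squalene, then sterols, and is switched on by the factor Srebf2 when cell sterols are low. Of 15 tested enzymes 12 rose and 1 fell, where 10.6% of all tested genes rose and 5.08% fell. The median difference of the 15 was 0.78. In the mevalonate arm Fdps read 12.04 and 12.37 in BERKO NPC, against 10.70 and 11.03 in WT NPC (difference 1.34, adjusted p = 2.17e-06). Mvd, the decarboxylase, read 9.20 and 9.21 in BERKO NPC and 7.86 and 8.06 in WT NPC (difference 1.24), and the kinase gene Mvk differed by 1.06 and the isomerase gene Idi1 by 1.00. All of them stood apart by more than the arrays of a genotype differed. In the sterol arm Fdft1 differed by 0.81, Sqle by 0.74, Lss by 0.78, Cyp51 by 0.87 and the last enzyme Dhcr7, with WT in the background range, by 0.91. Ebp, the sterol isomerase, was the enzyme that fell, with 5.26 and 5.38 in BERKO NPC, against 6.02 and 6.26 in WT NPC (difference -0.82); it lies in the X-chromosomal stretch described below. Srebf2 itself read 12.08 and 12.22 in BERKO NPC and 11.25 and 11.39 in WT NPC, a rise of 0.83. The cholesterol exporter gene Abca1, a target of the liver X receptors, fell by 1.40 (10.04 and 9.98 in BERKO NPC, against 11.45 and 11.38 in WT NPC). In the background range, the exporter gene Abcg1 fell by 0.52 and Mylip, which degrades the LDL receptor, fell by 0.67. Srebf2, Abca1, Abcg1 and Mylip belong to a list of sterol sensing, uptake and efflux, which was divided. Of its 14 tested members 3 rose and 4 fell, with a median difference of 0.006. Lpl, in the background range, rose by 0.525, Stard4 was also called higher, and Nr1h3 fell by 0.449.

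Promoters of the sterol enzymes were read in the same way, since Srebf2 is known to act with NF-Y on them. Windows were found for 12 of the 15 genes, 15 in all. CCAAT on either strand was in 12 of the 15, against 37.4% of all windows, while the exact letters TCACCCC, a core of several sterol response elements, were in 1 of the 15 (6.67%), against 4.97%, and TTTGAA was in 1. Windows of Mvd (chr8:122443373-122443672, minus strand) and Mvk (chr5:114444019-114444318, plus strand) are shown as examples that hold CCAAT, with CCAAT or ATTGG in capitals.
Mvd: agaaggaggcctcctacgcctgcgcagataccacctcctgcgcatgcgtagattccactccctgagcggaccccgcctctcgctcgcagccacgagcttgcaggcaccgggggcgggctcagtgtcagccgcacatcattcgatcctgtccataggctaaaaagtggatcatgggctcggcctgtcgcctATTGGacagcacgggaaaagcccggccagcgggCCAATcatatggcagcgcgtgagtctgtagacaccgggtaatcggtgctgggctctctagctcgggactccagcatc
Mvk: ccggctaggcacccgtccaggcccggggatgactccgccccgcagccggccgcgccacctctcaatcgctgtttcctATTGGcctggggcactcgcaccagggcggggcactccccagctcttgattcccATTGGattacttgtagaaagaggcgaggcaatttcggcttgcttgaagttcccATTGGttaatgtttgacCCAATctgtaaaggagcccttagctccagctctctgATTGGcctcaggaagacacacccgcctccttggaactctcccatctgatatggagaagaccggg
The Mvd window holds 2 matches and the Mvk window 5, on both strands.

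Hox genes give cells their position along the body axis. Of 28 tested members 14 were lower and 5 higher, where 5.08% of all tested genes were lower and 10.6% higher. The median difference of the 28 was -0.33. The falls numbered 10 to 14 with any 1 array left out. Hoxa6 read 7.29 and 7.38 in BERKO NPC, against 9.06 and 9.18 in WT NPC (difference -1.79, adjusted p = 6.09e-07). Hoxc9, with BERKO in the background range, differed by -1.42, Hoxa5 by -0.95 and Hoxc10, at 8.91 and 9.12 in BERKO NPC and 9.68 and 9.83 in WT NPC, by -0.74. These 4 were the members that fell and were above background in WT. Hoxb6 also passed the test, with both genotypes in the background range (4.36 and 4.60 in BERKO NPC, 6.52 and 6.99 in WT NPC). The 5 that rose were Hoxc12, Hoxc11, Hoxa13, Hoxc13 and Hoxa11, members of the posterior end of their clusters, all in the background range. Regional transcription factors beyond the Hox clusters moved both ways: Zic1, of the dorsal neural tube, read 8.91 and 8.76 in BERKO NPC and 7.15 and 7.04 in WT NPC, at least 2.6-fold higher, and the Hox partner Meis2 fell by 0.74. In the background range Irx1 differed by 1.52, Pax3 by 1.33 and the ventral factor Nkx6-1 by -1.66.

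Genes of 5 developmental signalling pathways were read. In the BMP and TGF-beta pathway 15 of 39 fell and 3 rose, where 5.08% of all tested genes fell. Receptors fell, among them Tgfbr2 (6.20 and 6.54 in BERKO NPC, against 7.96 and 8.11 in WT NPC, at least 1.61-fold lower) and Bmpr1a (12.33 and 12.38 in BERKO NPC, against 13.32 and 13.40 in WT NPC, difference -1.01), and so did the signal transducer Smad5 (-0.82). The targets Id4, Id1 and Id3, which hold back differentiation factors, differed by -1.63, -1.06 and -0.55. Id1 was not called without BERKO array 1 or without WT array 2. Of the 3 that rose, Bmp3 and Gdf11 are ligands and Chrdl1 is an antagonist. In the Hedgehog pathway 7 of 16 fell and 2 rose: the receptor and target gene Ptch1 read 12.57 and 12.80 in BERKO NPC, against 13.67 and 13.69 in WT NPC (difference -0.99), the effector Gli2 differed by -0.93 in the background range, and the coreceptors Cdon and Boc rose, Cdon at least 1.57-fold from a WT signal in the background range and Boc by 0.66. Ptch1 was the 1 fall with a WT signal above the background range, and the count of 7 was 4 without WT array 2 or without BERKO array 1. In the Wnt pathway 11 of 44 fell and 2 rose, and 4 of the 11 had a WT signal above the background range. Porcn, the enzyme that lipidates Wnt proteins, fell by 0.95, with BERKO in the background range. It lies in the X-chromosomal stretch described below and differed by -1.67 in mESC. The receptor Lgr4 (-0.89) and the feedback gene Nkd1 (8.06 and 8.19 in BERKO NPC, against 8.88 and 9.07 in WT NPC) also fell. The antagonist Frzb rose by 1.19 in the background range. The Notch pathway was divided, with 6 of 25 lower and 5 higher, and 10 were lower after quantile normalisation or median centring. Its ligand gene Jag1 differed by -1.36 (8.53 and 8.72 in BERKO NPC, against 9.91 and 10.07 in WT NPC), while the target genes Nrarp and Hes5 rose by 1.17 and 0.97. The FGF list had 4 of 29 lower and 3 higher, where 5.08% of all tested genes were lower and 10.6% higher. The members that fell were Fgfbp3, Egfr, Fgfr2 and Fgfr1, and those that rose were Erbb4, Fgfr3 and Spry4. Of these Egfr and Erbb4 are ErbB receptors and not FGF receptors. Egfr read 14.51 and 14.43 in BERKO NPC, against 15.24 in each WT array (difference -0.77). Erbb4 rose by 1.32 and Fgfr3 by 0.82.

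Genes of insulin-like growth factor signalling were divided as well, with 6 of 15 lower and 3 higher, where 5.08% of all tested genes were lower and 10.6% higher. The rises numbered 1 without WT array 1 or without BERKO array 2, and the falls 4 without WT array 2. The adaptor gene Irs2 read 10.46 and 10.30 in BERKO NPC, against 8.60 and 8.64 in WT NPC (difference 1.76, adjusted p = 8.73e-06), and the binding protein gene Igfbp3 differed by 1.21, with arrays at 9.73 and 10.27 in BERKO NPC and 8.32 and 9.26 in WT NPC. Igfbp3 was not called without BERKO array 2 or without WT array 1. The RNA-binding protein gene Igf2bp3 was at least 2.24-fold lower, with BERKO in the background range, the receptor gene Igf1r fell by 0.58, and the ligand genes Igf1 and Igf2 fell by 1.11 and 1.05 in the background range. Genes of cell contact and axon guidance also moved both ways. Of 30 cadherins and protocadherins 11 rose and 4 fell (2 without WT array 2 or without BERKO array 2), Pcdh10 by 1.55 (12.37 and 12.41 in BERKO NPC, against 10.85 and 10.83 in WT NPC) and Pcdh17 by 1.55. The netrin receptor genes Dcc and Dscam rose, Dcc by 1.68 and Dscam at least 1.81-fold from a WT signal in the background range. Dcc read 10.06 and 10.19 in BERKO NPC, against 8.35 and 8.54 in WT NPC. The repulsive ligand Slit1 fell by 1.97 in the background range, and the guidance protein gene Draxin fell by 1.69 (9.83 and 10.04 in BERKO NPC, against 11.79 and 11.47 in WT NPC). Among ephrins, semaphorins and their receptors 12 of 45 fell and 7 rose, and the rises numbered 3 or 4 with any 1 array left out. Sema4b read 7.92 and 7.78 in BERKO NPC, against 9.02 and 9.07 in WT NPC, a difference of -1.19, and the semaphorin receptor gene Plxna2 differed by -1.08. Ephb1 has a pair of clusters that disagree in size, with differences of -1.75 and -0.39.

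Metabolic genes rose in numbers that the scaling changed. They are set against 10.6% higher and 5.08% lower among all tested genes. Of 21 glycolysis and lactate genes 10 rose and 1 fell, but 4 were called higher after quantile normalisation, 6 after cyclic loess, 6 without WT array 1, and 3 without BERKO array 1. For Pgk1, 1 of the 10, the cluster used lies on chromosome 12 and differed by 0.85, while its cluster on X differed by 0.78. The glucose transporter gene Slc2a1 read 10.25 and 9.90 in BERKO NPC, against 9.07 and 9.12 in WT NPC (difference 0.98). Ldhb, a lactate dehydrogenase subunit, read 12.06 and 11.74 in BERKO NPC and 11.24 and 11.05 in WT NPC (difference 0.75, adjusted p = 0.000156). In fatty acid synthesis 5 of 17 rose, with 2 or 3 rises when any 1 array was left out, 2 after cyclic loess and 0 by limma after quantile normalisation. Genes that the factor ATF4 is known to induce when amino acids are short had 10 of 25 higher and 2 lower, 7 after quantile normalisation or cyclic loess. The cystine importer gene Slc7a11 read 8.41 and 8.57 in BERKO NPC, against 6.57 and 6.52 in WT NPC, at least 2.05-fold higher (adjusted p = 4.96e-06), and Slc7a5, a transporter of large neutral amino acids, differed by 0.99. The falls numbered 1 with any 1 array left out.

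The same genotype difference was measured on 4 other NPC arrays, those treated with LY3201, which share no array with the untreated ones. With LY3201 2287 genes were called (10.4%), 1005 higher (4.56%) and 1282 lower (5.81%). All 15 of the largest rises and all 15 of the largest falls were called in the same direction there: Mageb16 differed by 5.09, Gjc3 by 5.18, Dcn by -4.35 and Mmp2 by -3.79. Of the 338 genes at least 2-fold higher 230 were called higher with LY3201 and 1 was called lower, and of the 171 at least 2-fold lower 168 were called lower. Among the gene groups, mitosis had 27 of 33 higher with LY3201 with a median of 0.59, cholesterol synthesis 12 of 15 with 0.55, and collagens 13 of 27 lower with -0.28. Replication had 7 of 35 higher with LY3201, against 20 without, and glycolysis 3 of 21, against 10. Of all 2334 genes higher without LY3201 36.0% were also called higher with it, and these made up 83.7% of the genes higher with it. For genes lower the shares were 64.0% and 55.9%. The 2 WT arrays with LY3201 share a number in their titles, and the labels do not say whether they come from 1 culture.

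**Figure D3:**
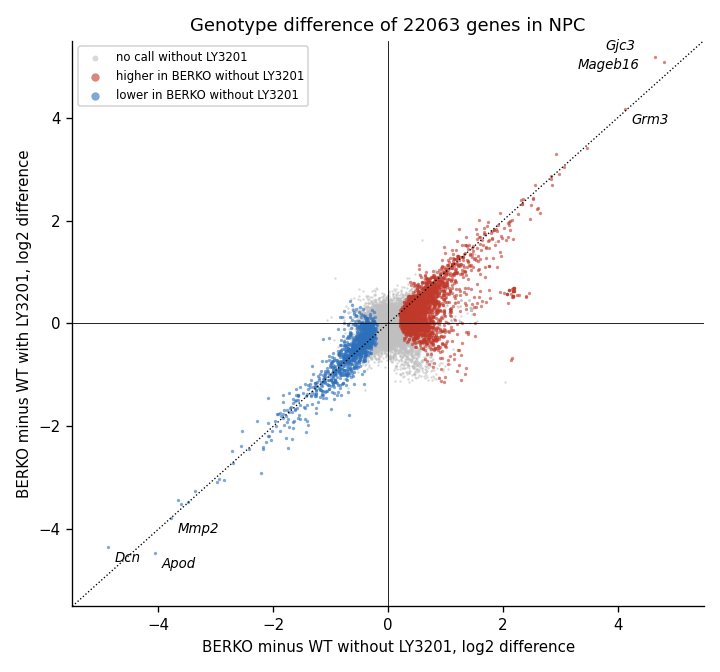
Genotype difference (BERKO minus WT, log2) of each of 22063 genes without LY3201 (horizontal) and with LY3201 (vertical), with genes called without LY3201 in red (higher) and blue (lower) and a dotted line of equality. The largest differences, such as Mageb16, Gjc3 and Dcn, lie near the line, while 36.0% of all genes higher without LY3201 were also called higher with it.

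A test of the difference between the treated and untreated genotype effects called 110 genes (0.499%). For 109 (0.494%) the effect was more negative with LY3201, and for 1 (0.00453%) it was more positive. Of the 110, 39 were protein-coding genes, and the others were mainly pseudogenes (35), small nucleolar RNAs (15) and small nuclear RNAs (10). After quantile normalisation or cyclic loess limma called 0, with 2426 and 2478 genes at an unadjusted p under 0.05. Classes of RNA differed in the untreated comparison too: 44 of 62 entries for ribosomal RNA were higher in BERKO NPC without LY3201 and 0 with it, and pseudogenes had 314 of 3286 higher without (9.56%, under the 10.6% of all tested genes) and 17 with it. Small nuclear RNAs had 25 of 767 higher and 5 lower without LY3201, and 1 higher and 161 lower with it. The median ribosomal RNA entry was at 19.11 and 19.16 in BERKO NPC and 18.77 and 18.66 in WT NPC. Signal level and class thus moved with the excess of small rises, and their part in it was not tested.

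The same genotype contrast was read at the other stages. In mESC 929 genes were called (4.21%), 370 (1.68%) higher in BERKO and 559 (2.53%) lower, and 87 of the 2334 genes higher in NPC (3.73%) were higher in mESC, which is 23.5% of the mESC rises, while 79 of the 2334 were called lower in mESC. The mESC count was 157 when its 4 arrays were fitted alone and 368 to 1050 with 1 array left out. The titles of the 2 BERKO mESC arrays share a number, and the labels do not say whether they come from 1 culture. A test of NPC minus mESC genotype effects called 2119 genes (9.6%), 1401 (6.35%) more positive and 718 (3.25%) more negative in NPC. All 15 of the largest rises and all 15 of the largest falls were among them. These genes were chosen for large differences on the same untreated NPC arrays, so that count follows largely from the choice. Of the 15 largest rises 0 were called higher in mESC by limma. Of the 15 largest falls 3 were called lower there, Pltp and Cdk6 among them. Apart from these 3, the falls averaged in the background range in both mESC genotypes, and so did all rises but Mageb16. The 95th percentiles of the mESC arrays were 7.35 to 7.66. For genes so dim in mESC a genotype difference could hardly show. Mageb16 averaged 10.18 in BERKO mESC and 9.98 in WT mESC, and 9.95 in BERKO NPC and 5.14 in WT NPC, so that of these 4 groups WT NPC stood apart. At the mDPC stage, where 8.51% of all tested genes were higher and 5.32% lower, all 15 largest rises and 9 of the 15 largest falls were called in the same direction as in NPC. At the MN stage, where 13.5% were higher and 7.31% lower, 10 and 11 were. Gpr17, 1 of the 15 rises, was called lower in MN (difference -0.85, limma adjusted p = 0.031). Among the falls not called in mDPC, Dcn, Postn, Tgfbi, Col3a1 and Lum averaged in the background range there in both genotypes. The test of NPC minus mDPC effects called 1914 genes (8.68%), 1102 (4.99%) more positive and 812 (3.68%) more negative in NPC. The mitosis list differed in sign between stages, with medians of 0.04 in mESC, 0.89 in NPC, -0.78 in mDPC and 0.96 in MN. All 33 genes passed the test of NPC minus mDPC effects. Several members were in the background range in mDPC, where the 95th percentiles were 7.17 to 7.34. There Ube2c averaged 6.66 in BERKO and 6.93 in WT, Nusap1 3.83 and 4.97, and Hmmr 4.39 and 5.71. Mki67, at 5.08 and 7.90, was above that range in WT only. Cholesterol synthesis had medians of -0.03 in mESC, 0.78 in NPC, 0.51 in mDPC and 0.29 in MN. Oligodendrocyte lineage genes had 0.11, 0.44, 0.87 and 0.00 in the same order. Hox genes had medians of 0.04 in mESC, -0.33 in NPC, -0.40 in mDPC and -0.47 in MN. For the matrix, collagens had 13 members lower and 1 higher in NPC. They had 4 lower and 4 higher in mDPC, and 9 lower and 9 higher in MN. As lower in NPC than in mDPC 10 collagens passed the test. Among the 10, Col4a2 averaged 4.75 in BERKO mDPC and 4.90 in WT mDPC, and Col3a1 4.88 and 5.01, in the background range.

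**Figure D4:**
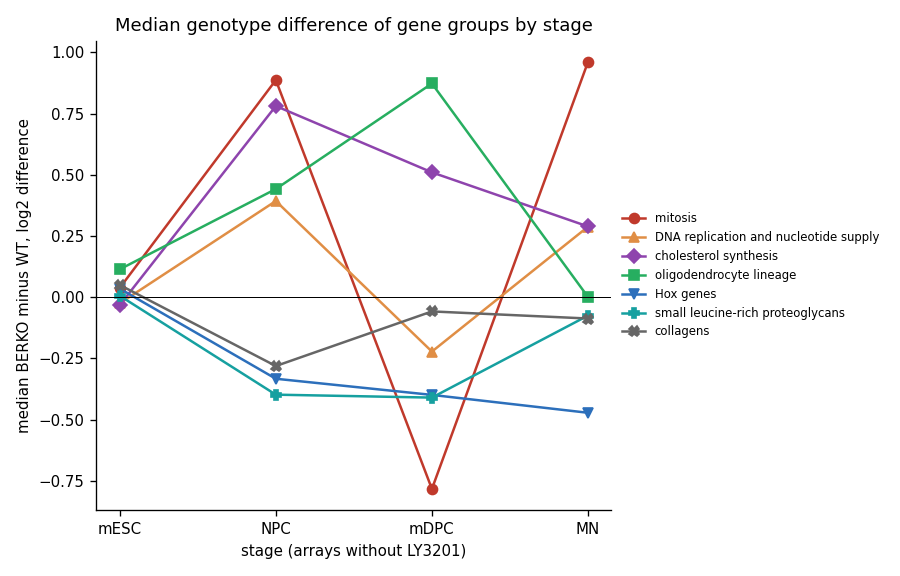
Median genotype difference (BERKO minus WT, log2) of the tested members of 7 gene groups at 4 stages without LY3201, in the order of differentiation. At the mESC stage the 7 medians lie between -0.03 and 0.11. The mitosis median is 0.89 in NPC, -0.78 in mDPC and 0.96 in MN. Several mitosis genes, such as Nusap1 and Hmmr, averaged in the background range in both genotypes in mDPC.

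A set of genes differed between the genotypes at every stage, and many of those that were lower lie near one end of the X chromosome. Higher at all 4 stages without LY3201 were 9 protein-coding genes, among them Esr2, which differed by 0.71 in mESC, 0.99 in NPC, 0.84 in mDPC and 0.97 in MN. The other 8 were Ehd3, Ldhb and Cntln, and the X-linked genes Map7d3, Apoo (with a cluster ID of chromosome 13), Hmgb3, Mpp1 and Prkx. In NPC Map7d3, like Esr2, lay in the background range. In NPC with LY3201 Ldhb, Apoo and Hmgb3 were not called (limma adjusted p = 0.201, 0.18 and 0.092). Of 14536 tested protein-coding genes 32 were lower in BERKO in each of 5 comparisons (mESC, NPC, NPC with LY3201, mDPC and MN). In the order of RefSeq start positions (GRCm38.p6) 19 of the 32 fall among the first 58 tested protein-coding genes of the X chromosome, up to Mid1ip1, none lies elsewhere on X, and 13 are on other chromosomes. The end of this stretch was drawn after the values were seen, so its counts describe it and test nothing. In NPC 30 of the 58 genes were lower and 0 higher, where 5.08% of all tested genes were lower. Of its 14 genes with a mean signal above the background range 13 were lower, with a median difference of -0.92. The place of 4 of the 58 is uncertain: the cluster IDs of Vamp7, Spry3 and Tmlhe name a scaffold assigned to X but not placed on it, and that of Plp2 names chromosome 13. Without these 4, a setting chosen after seeing the data, 27 of 54 genes were lower and 0 higher. Of the 11 then above the background range 10 were lower, with a median of -0.88, and 17 of the 54 were lower in all 5 comparisons.

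Over the 14 genes the differences were between -1.88 and -0.26. Vamp7, a vesicle fusion protein gene, read 10.38 in each BERKO array, against 11.38 and 11.58 in WT (difference -1.10, adjusted p = 4.76e-06). Otud5, a deubiquitinase gene, read 8.01 and 8.02 in BERKO, against 9.30 and 9.25 in WT (difference -1.26, adjusted p = 1.13e-09). Pqbp1, whose product takes part in splicing, read 10.30 and 10.37 in BERKO, against 11.36 and 11.38 in WT (difference -1.03). In each the arrays of a genotype lay much closer together than the genotypes. Gpkow differed by -1.16, the RNA methyltransferase gene Ftsj1 by -0.96, the deacetylase gene Hdac6 by -0.88, the mitochondrial import gene Timm17b by -0.78, the chloride transporter gene Clcn5 by -0.83, Wdr13 by -1.12, Praf2 by -0.84, the cold-induced RNA-binding protein gene Rbm3 by -0.84, Tmlhe by -0.46 and the membrane protein gene Plp2, measured by the cluster named for chromosome 13, by -1.88. The gene of the 14 that was not called was Dgkk, a lipid kinase (7.49 and 8.09 in BERKO, against 7.98 and 8.11 in WT). The 14 genes had medians of -0.93 in mESC, -1.05 in NPC with LY3201, -1.12 in mDPC and -1.02 in MN, and 11 of them were lower in all 5 comparisons. Past the stretch the 177 X-linked genes above background had a median of 0.08 in NPC, 16 lower and 42 higher.

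**Figure D5:**
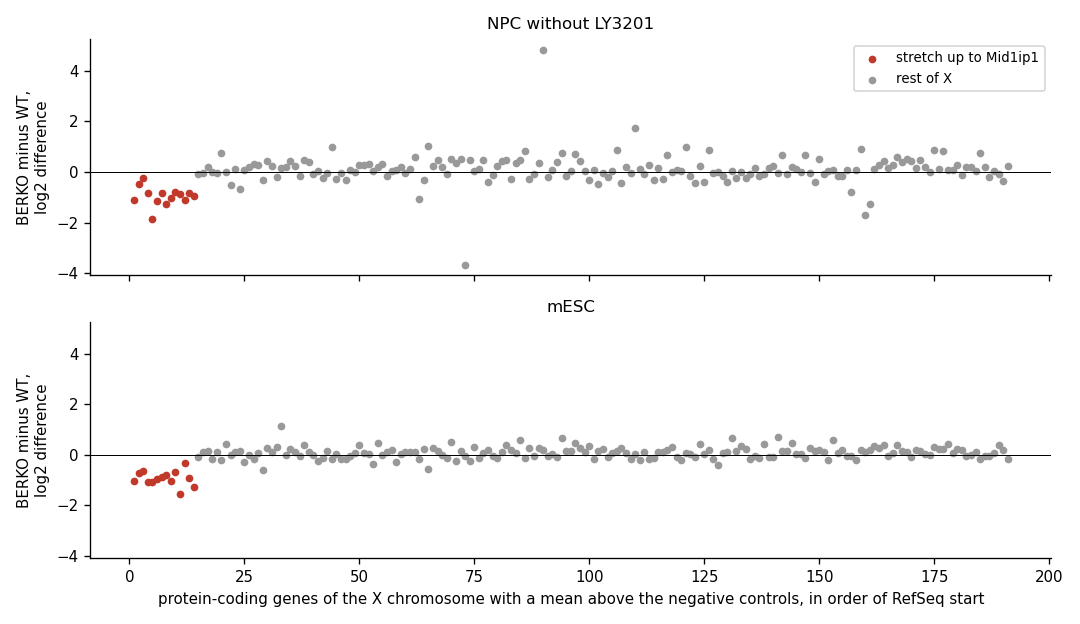
Genotype difference (BERKO minus WT, log2, vertical axis) of 191 protein-coding genes of the X chromosome with a mean signal above the negative controls, in the order of RefSeq start positions, in NPC without LY3201 (top) and in mESC (bottom). The 14 genes of the stretch (red), 3 of them of uncertain place, lie below 0 at both stages with medians of -0.92 and -0.93, and the rest (grey) scatter around 0.

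The rest of the genome was read in the same way. Medians were taken over each run of 15 neighbouring genes above background on chromosomes 1 to 19 and X, 4731 runs in all. In 6 runs the median was under -0.5 in all 5 comparisons, and all 6 lie at this end of X; in no run was it over 0.5 in all 5. Over genes whose cluster ID names their chromosome it was under -0.5 in 3 of 4694 runs, all 3 on X. Outside X the run medians in NPC were between -0.21 and 0.46. Neighbouring runs share genes, so the 6 runs are not 6 separate places. A stretch much shorter than a run, or with smaller differences, could be missed. Under the alternative settings tried, 12 or 13 of the 14 genes stayed called and their median was between -1.07 and -0.89. Neighbouring genes are not replicates of one another, and both genotypes' arrays come from lines whose number is not given.

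The neighbourhood of Esr2 on chromosome 12 was read as well, against 10.6% higher and 5.08% lower among all tested genes. Of the 5 tested genes on either side 3 rose and 0 fell: the potassium channel gene Kcnh5 differed by 0.56 in the background range, Gm7862 by 0.70 (not called without BERKO array 2 or without WT array 2), and the folate enzyme gene Mthfd1 by 0.48 (10.75 and 10.87 in BERKO NPC, against 10.33 in each WT array). The other 7 differed by -0.16 to 0.52 and were not called. Of the 13 genes lower in all 5 comparisons off the X chromosome, Snapc1, of small nuclear RNA transcription, also lies on chromosome 12 outside these neighbours, and it was chosen after its values were seen. It differed by -0.95 in NPC, -1.02 in mESC, -1.12 in mDPC and -0.95 in MN. The others of the 13 included the imprinted genes Impact, Peg10 and Plagl1, with NPC differences of -1.02, -0.71 and -0.66, the guidance ligand gene Ntn1 with -0.59, and the ubiquitin ligase gene Nedd4l with -1.25.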

How the data were processed

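RNA (150 ng per array) was hybridised to Affymetrix Mouse Clariom D arrays, per the labels' protocols. The authors deposited log2 values, which per the labels are SST-RMA values from Affymetrix Expression Console 1.4; the submitters' processing notes also name Transcriptome Analysis Console. Of 65956 transcript clusters 30604 had 1 gene symbol in the platform annotation, 2146 several and 33206 none. For a gene with several clusters the one with the highest mean was used, and genes above the array's median in at least 2 arrays were tested. One model with a mean per group was fitted to all 29 arrays of 14 groups (limma 3.58.1, R 4.3.3, 15 residual degrees of freedom), 2-sided, with Benjamini-Hochberg adjustment and a threshold of 0.05. The fit was tested on simulated data. Groups come from the labels, and the series' design calls the replicates biological. Named are Esr1, Esr2, the 15 largest rises and 15 largest falls above background, up to 6 called members per list, and the neighbours of Esr2. The largest rises and falls were taken among called genes whose arrays do not overlap by genotype. Predicted genes (Gm, Rik and LOC names), small RNAs and the Olfr, Vmn and Taar receptor families were left out. The pseudogene Gm13669, left out so, differed by -2.175, against -2.07 for Cdk6 and -1.95 for Thbs2. Other members given with values, the X-chromosomal stretch and its genes were chosen after their values were seen. The members and lists were chosen with earlier results of these data known. Alternatives changed the filter, scaling, prior, clusters and arrays fitted, or left out 1 array. Arrays of mDPC and MN with LY3201 entered the fit for its spread only.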

Additional observations from a re-analysis of the deposited data

Results flagged for a closer look

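The genotype difference was tested between conditions, and the following differed. Between NPC with and without LY3201 the difference changed for 110 genes, but for 0 by limma after quantile normalisation or cyclic loess (2426 and 2478 at an unadjusted p under 0.05) and for 0 to 376 with 1 array left out. Between NPC and mESC it changed for 2119 genes, and between NPC and mDPC for 1914 genes. The largest rises and falls were chosen by the untreated NPC arrays, which also enter this test. The counts below therefore follow in part from that choice. Of the 15 largest rises in NPC 10 had a different size in mDPC by limma's adjusted p, given here as the NPC minus the mDPC difference. The value was 2.24 for Osr2, 1.84 for Tnr, 1.23 for Cntn1, 0.76 for Grin3a and 0.71 for Xylt1, so these rose more in NPC. It was -2.72 for Gabra4, -2.41 for Luzp2, -1.77 for Cyp2j6, -1.56 for Il33 and -0.99 for Gria4, so these rose more in mDPC. Of the 15 largest falls 13 had a different size. The matrix genes had -4.22 for Dcn, -3.35 for Postn, -2.93 for Tgfbi, -2.89 for Mmp2, -2.73 for Col3a1, -2.26 for Lum and -2.21 for Thbs2, and the difference in NPC was the more negative. The same held for Apod at -1.94, Colec12 at -1.76, Pltp at -1.19 and Cdk6 at -0.91. In mDPC all of these but Thbs2 and Pltp averaged in the background range in both genotypes. The size of a fall can hardly be read there. Dcn averaged 4.7 in BERKO mDPC and 5.4 in WT mDPC, and Postn 4.9 in each. Mmp2 averaged 4.7 and 5.6, Col3a1 4.9 and 5.0, and Lum 4.4 and 4.7. For Prom1 at 1.85 and Cxcr4 at 0.84 the difference in mDPC was the more negative.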

How the results depend on the processing

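Of the 220 named genes called in NPC 174 kept their call under every alternative run, and of 3065 values under alternatives 0 had the opposite sign. No paired analysis was possible because the labels give the arrays no replicate numbers shared between genotypes. With 1 array left out, the NPC genotype effect called 1898 to 2657 genes, the NPC genotype effect with LY3201 1281 to 1615, the mESC genotype effect 368 to 1050, the NPC minus mESC genotype effect 1318 to 1895 and the NPC minus mDPC genotype effect 1204 to 1543. The lowest NPC counts came without WT array 1 (1898) and without BERKO array 2 (2019). Fitted on the compared groups alone, the effect with LY3201 called 1499 genes and the mESC effect 157. The NPC genotype effect, LY3201 minus untreated, called 53 genes with no filter, 265 with the filter at the 75th percentile, 29 with median centring, 22 over protein-coding genes alone, and 0 after quantile normalisation or cyclic loess by limma (2426 and 2478 at an unadjusted p under 0.05), and 0 to 376 with 1 array left out. Cyclic loess and protein-coding genes alone were chosen after seeing the data, and the cause of these moves was not tested. With 2 arrays per genotype and a background range up to 7.46, small differences and dim genes are the least certain.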
